A study of Mus musculus with 20 samples.

Results

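miR-224 and miR-452 are a pair of microRNAs whose hairpins lie in 1 intron of Gabre, the X-linked gene for the epsilon subunit of the GABA-A receptor. Every row named for either microRNA was taken, which gave 4 mature arms of the 1886 mature miRNA rows in the tables. They are miR-224-5p (mmu-miR-224-5p in the tables, mmu for mouse), miR-224-3p, miR-452-5p and miR-452-3p. The pair was chosen by its shared host gene and because miR-224-5p was seen to fall with days in culture, so the values of DIV5 against DIV1 are given as a description, with no test. Only 1 of the 4 arms, miR-224-5p, passed the filter on low counts.

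The cells were primary midbrain neurons of C57Bl6/J mouse embryos of day 12.5, taken from the ventral mesencephalon without the meninges and grown free of serum in Neurobasal-A with B27. The labels name no transgene or deletion, and the cultures hold every cell type of the dissected tissue that survives plating. Cultures were collected after 1 day in vitro (DIV1) or 5 days in vitro (DIV5), each either in medium alone (control) or in medium with GDNF at 10 ng/ml, and each of the 4 groups had 5 small RNA libraries. GDNF, glial cell line-derived neurotrophic factor, is a survival factor for dopaminergic neurons, and the labels do not say when it was added. The labels do not say whether the libraries of a group came from separate animals or cultures, so p-values measure only the spread between these libraries.

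GABA-A receptors are chloride channels opened by the inhibitory transmitter GABA, and the epsilon subunit is known mainly from the hypothalamus and from monoaminergic nuclei such as the locus coeruleus. A hairpin in an intron is cut from the host transcript by Drosha and then trimmed by Dicer to a duplex of a 5p and a 3p arm, of which usually 1 is kept in the silencing complex. miR-224 is best known from ovarian granulosa cells, where TGF-beta induces it, and from liver tumours, and miR-452 from the neural crest of the mouse embryo.

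Both hairpins lie in intron 6 of the 9-exon transcript Gabre-201, on the same strand as the gene. On build GRCm38 (mm10) in the GENCODE M21 annotation, Gabre is at chrX:72255999-72274803, Mir452 at chrX:72262224-72262308 and Mir224 at chrX:72261031-72261112, all on the minus strand. The intron is 3878 nt long. The libraries hold small RNA, so the Gabre transcript itself was not measured. Mir452 starts 136 nt after exon 6, and Mir224 follows after a gap of 1111 nt, with 2464 nt left to exon 7.

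**Figure D1:**
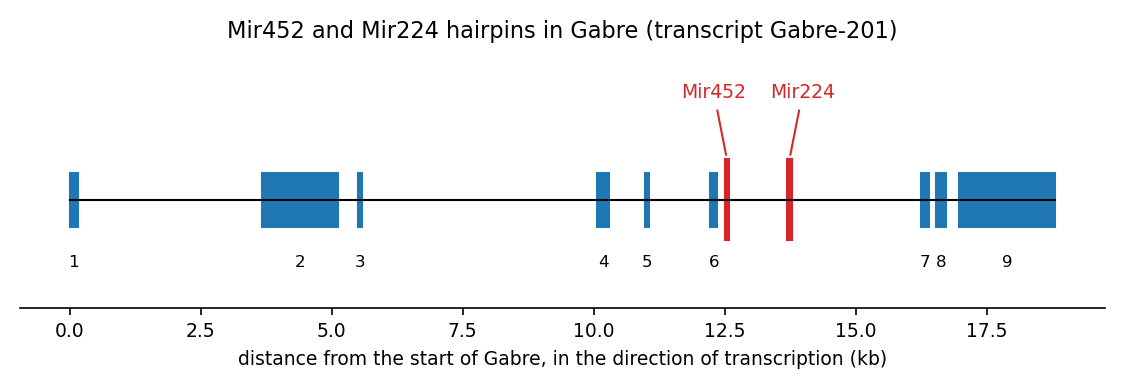
Map of Gabre drawn to scale in the direction of transcription, with distance from the gene's start in kb on the horizontal axis. Blue boxes are the 9 exons and red boxes the Mir452 and Mir224 hairpins, which both sit in intron 6, between exons 6 and 7.

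The hairpins are shown in the RefSeq sequence (GRCm38.p6), with the 5p and the 3p arm in capitals, because the reads counted below come almost wholly from the first capital stretch of each.
Mir224: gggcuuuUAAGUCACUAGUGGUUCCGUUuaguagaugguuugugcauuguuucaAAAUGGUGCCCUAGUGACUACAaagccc
Mir452: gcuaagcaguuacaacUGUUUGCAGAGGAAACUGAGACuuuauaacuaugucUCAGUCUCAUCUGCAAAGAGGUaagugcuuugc

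The mature arms are printed with the seed, bases 2 to 8, in capitals, since the seed sets which transcripts a microRNA can pair with.
miR-224-5p: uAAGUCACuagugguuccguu
miR-224-3p: aAAUGGUGcccuagugacuaca
miR-452-5p: uGUUUGCAgaggaaacugagac
miR-452-3p: uCAGUCUCaucugcaaagaggu

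The 4 seeds were all different. Any pair of them differed at 2 to 6 of the 7 bases, the closest pair being miR-224-5p and miR-452-3p. No other miRNA of the tables shared a seed with any of the 4 arms, among the 1613 of 1901 names that matched the RefSeq table. The pair therefore holds 4 separate seed groups, each with 1 member.

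Total counts per library lay between 420118 and 4324505, and at DIV5 libraries 1 and 2 of both groups stood apart from libraries 3 to 5. Totals were 1061619 to 1907937 in DIV5 libraries 1 and 2 and 2969524 to 4324505 in libraries 3 to 5. Reads assigned to no miRNA made up 17.7% to 19.5% of all reads in DIV5 libraries 1 and 2, 9.51% to 13.3% in libraries 3 to 5 and 16.5% to 22.6% at DIV1. The labels name no batch behind this split. Levels are given as CPM, the count divided by library size in the usual way, with library sizes scaled by TMM factors. A single read was worth 0.623 to 2.6 CPM at DIV1 and 0.198 to 0.987 CPM at DIV5. Reads carry no molecular identifiers, so intervals and limits below cover counting error only.

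Nearly all reads came from the 5p arms. For miR-224, 743 of 746 reads in the 20 libraries were miR-224-5p (99.6%), and for miR-452, 111 of 115 were miR-452-5p (96.5%). The 3 reads of miR-224-3p were in DIV5 control library 3 (2 reads) and DIV5 GDNF library 4 (1 read). The 4 reads of miR-452-3p were in DIV5 control library 5 (1 read) and in DIV5 GDNF libraries 4 (1 read) and 5 (2 reads). Both 3p arms had 0 reads in all 10 DIV1 libraries, which allows up to 0.638 CPM over the 5 control libraries and 0.621 CPM over the 5 GDNF libraries (3 reads). The reads of the 3p arms at DIV5 amount to less than that limit, so no difference between the days was detectable for them at this depth.

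miR-224-5p stood near the middle of the 542 tested miRNAs by mean level at DIV1, in place 280 without GDNF and 292 with it, and lower down at DIV5, in place 454 and 401. At DIV1 without GDNF it had 47.8, 56.8, 46.1, 52.3 and 41.8 CPM in libraries 1 to 5, from 71, 62, 33, 40 and 27 reads. At DIV1 with GDNF it had 54.2, 46.7, 30.5, 44.8 and 52.0 CPM, from 39, 52, 49, 45 and 20 reads. The 2 DIV1 groups overlapped over most of their range, with library 3 of the GDNF group the lowest of the 10.

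At DIV5 every library was lower than every DIV1 library, in a comparison where much of the profile moved. edgeR called 60.7% of the 542 tested miRNAs at an adjusted p below 0.05 without GDNF (29.3% lower and 31.4% higher at DIV5) and 52.4% with it (27.3% lower and 25.1% higher). Without GDNF miR-224-5p had 11.3, 13.8, 4.35, 6.96 and 9.17 CPM, from 24, 14, 22, 23 and 42 reads. With GDNF it had 18.1, 20.4, 9.91, 11.98 and 5.46 CPM, from 36, 35, 40, 48 and 21 reads. In both DIV5 groups libraries 1 and 2 were the highest, and their levels did not overlap those of libraries 3 to 5 in the same group.

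The order of the group means was DIV1 control (49.0 ± 5.77 CPM, SD, n = 5), DIV1 GDNF (45.6 ± 9.27), DIV5 GDNF (13.2 ± 6.09) and DIV5 control (9.12 ± 3.68). Neighbours in this order within a day overlapped and did not differ in the tests given below. The gap lay between the days: the lowest DIV1 library had 30.5 CPM and the highest DIV5 library 20.4 CPM. The means at DIV1 were 5.37-fold those at DIV5 without GDNF and 3.47-fold with it. Counting error was not small beside these values. In the library with the fewest reads, DIV5 control library 2 with 14 reads, the 95% Poisson interval ran from 7.56 to 23.2 CPM.

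**Figure D2:**
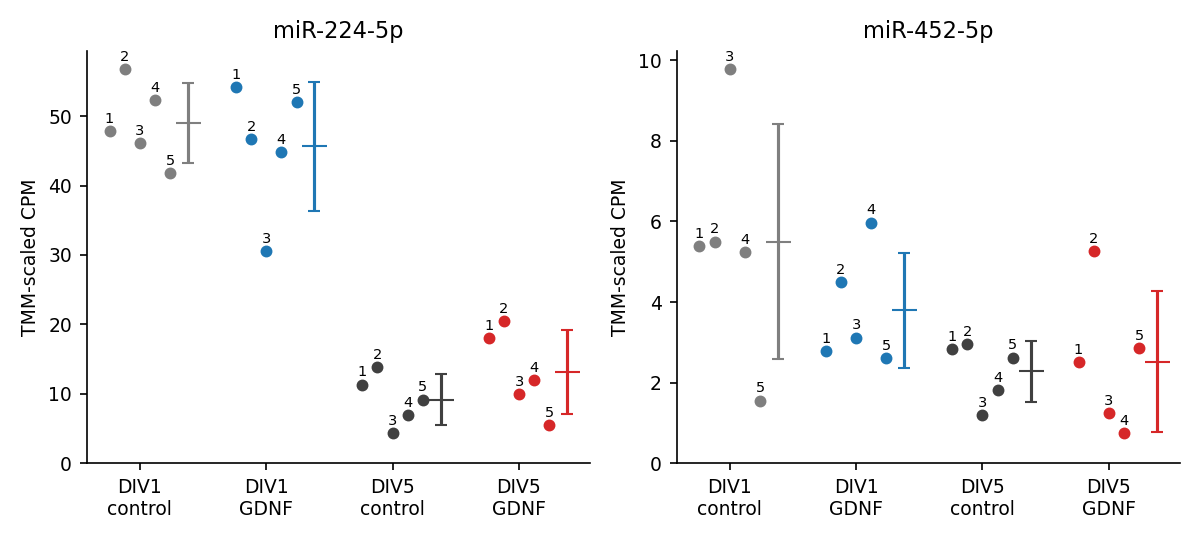
TMM-scaled CPM of miR-224-5p (left) and miR-452-5p (right) in each library, on linear axes from 0, with the replicate number above each point and the mean ± SD of the 5 libraries beside each group. All DIV5 points of miR-224-5p lie below all DIV1 points, whereas the days overlap for miR-452-5p.

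In the edgeR fit miR-224-5p had a log2 value of -2.50 for DIV5 against DIV1 without GDNF and -1.81 with GDNF. These are the values behind the choice of the pair, and nothing is read from them. Among the 542 tested miRNAs they were in place 7 and 18 from the most negative. The median log2 value of all tested miRNAs was 0.10 and 0.0017. Without TMM factors that median was 0.36 and 0.15, the share of lower among all calls went from 48.3% to 32.7% without GDNF and from 52.1% to 41.3% with it, and miR-224-5p had -2.25 and -1.69. In bulk RNA a lower level can be fewer cells that make a microRNA or less of it per cell, and the 2 cannot be told apart.

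The size of the day difference in miR-224-5p differed between the DIV5 libraries that stood apart. With DIV5 libraries 1 and 2 only, the log2 value was -1.92 without GDNF and -1.22 with it. With DIV5 libraries 3 to 5 only, it was -2.86 and -2.27. The mean level at DIV5 without GDNF was 12.6 CPM in libraries 1 and 2 and 6.83 CPM in libraries 3 to 5, and with GDNF 19.3 and 9.12 CPM. DIV5 libraries 1 and 2 also had the smaller totals and the larger share of reads assigned to no miRNA, and the part of these in the level of miR-224-5p was not tested.

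miR-452-5p, the other arm with reads in every library, was far rarer and stayed under the filter. At DIV1 without GDNF it had 8, 6, 7, 4 and 1 reads in libraries 1 to 5, or 5.39, 5.50, 9.79, 5.23 and 1.55 CPM. At DIV1 with GDNF it had 2, 5, 5, 6 and 1 reads, or 2.78, 4.49, 3.11, 5.97 and 2.6 CPM. The DIV1 groups overlapped, and both had their library with the fewest reads at replicate 5.

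At DIV5 without GDNF miR-452-5p had 6, 3, 6, 6 and 12 reads, or 2.83, 2.96, 1.19, 1.82 and 2.62 CPM. With GDNF it had 5, 9, 5, 3 and 11 reads, or 2.51, 5.26, 1.24, 0.749 and 2.86 CPM. The groups overlapped at each day and across the days. The means were 5.49 ± 2.92 CPM at DIV1 without GDNF, 3.79 ± 1.43 at DIV1 with it, 2.28 ± 0.757 at DIV5 without it and 2.52 ± 1.76 at DIV5 with it (SD, n = 5 each). With so few reads 1 library says little: for the single read of DIV1 GDNF library 5 the 95% Poisson interval ran from 0.0658 to 14.5 CPM.

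The day difference of miR-452-5p had the same direction as that of miR-224-5p and was smaller. miR-224-5p was chosen for its fall and miR-452-5p had few reads, so the sizes are set side by side without a test. Its DIV1 mean was 2.41-fold the DIV5 mean without GDNF and 1.5-fold with it, against 5.37-fold and 3.47-fold for miR-224-5p. Its DIV1 and DIV5 libraries overlapped in both comparisons, whereas those of miR-224-5p did not. That separation is part of the fall that chose miR-224-5p, and the share of tested miRNAs without overlap was not counted.

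The ratio of reads of the 2 arms sets them against each other within a library, free of library scaling. The arms come from 1 intron, so the ratio describes how evenly their mature forms were counted. It compares reads, not molecules. At DIV1 without GDNF there were 8.96 reads of miR-224-5p for each read of miR-452-5p (233 and 26 reads over the group), with 4.71 as the lowest library, 10.0 as the median and 27.0 as the highest. At DIV1 with GDNF the ratio of the sums was 10.8 (205 and 19 reads; lowest 7.5, median 10.4, highest 20). The highest ratio of each DIV1 group rests on a single read of miR-452-5p.

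At DIV5 miR-452-5p made up more of the pair's reads. The ratio of the sums was 3.79 without GDNF (125 and 33 reads; lowest 3.50, median 3.83, highest 4.67) and 5.45 with it (180 and 33 reads; lowest 1.91, median 7.20, highest 16). All 5 DIV5 control libraries were below all 5 DIV1 control libraries, by a narrow margin (4.67 against 4.71). The GDNF groups of the 2 days overlapped. As a share, miR-452-5p took 9.82% ± 4.99 of the reads of both 5p arms at DIV1 and 20.4% ± 1.75 at DIV5 without GDNF, and 7.89% ± 3.02 and 16.8% ± 11.1 with it (SD, n = 5 each). The ratio holds the miR-224-5p reads that chose the pair, so its day difference is also a description.

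**Figure D3:**
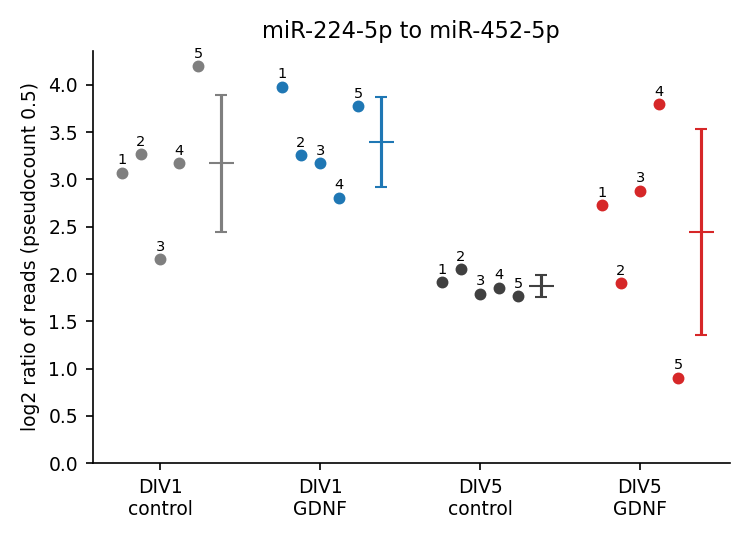
Log2 ratio of miR-224-5p to miR-452-5p reads in each library (pseudocount 0.5), with the replicate number above each point and the mean ± SD of the 5 libraries beside each group. DIV5 control libraries lie close together, with a mean of 1.88 ± 0.114, and DIV5 GDNF libraries are spread widely, with 2.44 ± 1.09.

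The question behind the series is how GDNF changes the microRNAs of these neurons at each day, and this contrast played no part in the choice of the pair. At DIV1 miR-224-5p did not differ between cultures with and without GDNF beyond the spread of the libraries. The log2 value was -0.12 (SE 0.301, approximate 95% interval -0.71 to 0.47, edgeR quasi-likelihood test, Benjamini-Hochberg adjusted p = 1), and 2 of 5 GDNF libraries exceeded the control library that carries their number. In the same comparison edgeR called 0.0% of 542 miRNAs (7 at an unadjusted p under 0.05), and DESeq2 and limma voom called 0.

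At DIV5 the mean of miR-224-5p was 1.44-fold higher with GDNF, a difference that did not pass the test. The log2 value was 0.56 (SE 0.315, approximate 95% interval -0.054 to 1.18, edgeR adjusted p = 0.401, unadjusted p = 0.088). In 4 of 5 cases the GDNF library exceeded its like-numbered control, by ratios of 1.60, 1.48, 2.28 and 1.72 for numbers 1 to 4, and in the other it was lower (0.596 for number 5). Within DIV5 libraries 1 and 2 the log2 value was 0.54 (edgeR adjusted p = 0.453) and within libraries 3 to 5 it was 0.43 (edgeR adjusted p = 0.672). The interval reaches from a value just under 0 to more than a doubling, so it does not show that the groups were alike.

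The background of that comparison was small: edgeR called 0.185% of the miRNAs, 1 of 542. With the replicate number as a block within each day it called 3, miR-224-5p not among them (log2 0.49, adjusted p = 0.307), and DESeq2 called 26. The difference between the GDNF effects at DIV5 and DIV1 was 0.69 on the log2 scale for miR-224-5p (SE 0.435, approximate 95% interval -0.16 to 1.54, edgeR adjusted p = 0.725). No difference between the days in the response of miR-224-5p to GDNF was therefore called. In this comparison edgeR called 0.0% of the miRNAs (50 at an unadjusted p under 0.05), and DESeq2 and limma voom called 0.

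miR-452-5p stayed under the filter, so its GDNF comparisons were tested only in a fit without the filter, added after the data were seen. The log2 value there was -0.54 at DIV1 (SE 0.526, edgeR adjusted p = 0.95) and 0.089 at DIV5 (SE 0.469, edgeR adjusted p = 1), and the difference of the effects was 0.63 (SE 0.705, edgeR adjusted p = 1). None of the 3 was called. Its mean with GDNF was 0.690-fold that without at DIV1 and 1.1-fold at DIV5. The GDNF library was above its like-numbered control for 2 of 5 numbers at DIV1 and for 3 of 5 at DIV5, and the groups overlapped at both days.

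For the log2 ratio of miR-224-5p to miR-452-5p no difference with GDNF passed the test at either day. Its mean was 3.40 with GDNF and 3.17 without at DIV1, a difference of 0.22 (exact two-sided permutation p = 0.603, adjusted over 2 tests p = 0.603). At DIV5 it was 2.44 and 1.88, a difference of 0.57 (exact permutation p = 0.325, adjusted p = 0.603). Paired by replicate number, the 5 differences at DIV5 were 0.82, -0.15, 1.09, 1.94 and -0.86, so the ratio was higher with GDNF in 3 of 5 (exact two-sided sign-flip permutation p = 0.375, smallest possible 0.0625). Without DIV5 GDNF library 5, where miR-452-5p had 11 reads and miR-224-5p 21, the DIV5 difference was 0.95 (unadjusted exact permutation p = 0.0476). Of the 10 runs with 1 DIV5 library left out, this run alone had an unadjusted exact permutation p below 0.05. Without DIV5 GDNF library 4, where miR-452-5p had 3 reads and miR-224-5p 48, the difference was 0.23 (unadjusted exact permutation p = 0.651). With 5 libraries against 5 the smallest possible p is 0.00794.

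The miRNAs whose levels ran most closely with miR-224-5p were others that were lower at DIV5. Likeness was Pearson's r of log2 CPM over the 20 libraries, among 438 other tested miRNAs with a mean of at least 10 CPM. It is a description, since all points share libraries, depth and the step between the days. The highest values were those of miR-130b-5p (r = 0.957), miR-423-5p (0.957), miR-181b-5p (0.947), miR-25-5p (0.946) and miR-674-3p (0.945), against a median of -0.0866 over the 438. miR-25-5p is the rarer arm of a hairpin in an intron of Mcm7, a gene of DNA replication, and miR-181b-5p is abundant in neural tissue. For DIV5 against DIV1 without GDNF these 5 had log2 values between -0.995 and -2.07, against -2.50 for miR-224-5p. With GDNF they had -0.81 to -2.27, against -1.81, and miR-25-5p (-2.27) was then the more negative. None of the 5 was called for GDNF at either day by edgeR, against 0.0% of all tested miRNAs at DIV1 and 0.185% at DIV5. miR-452-5p, its neighbour in the intron, had an r of 0.618.

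**Figure D4:**
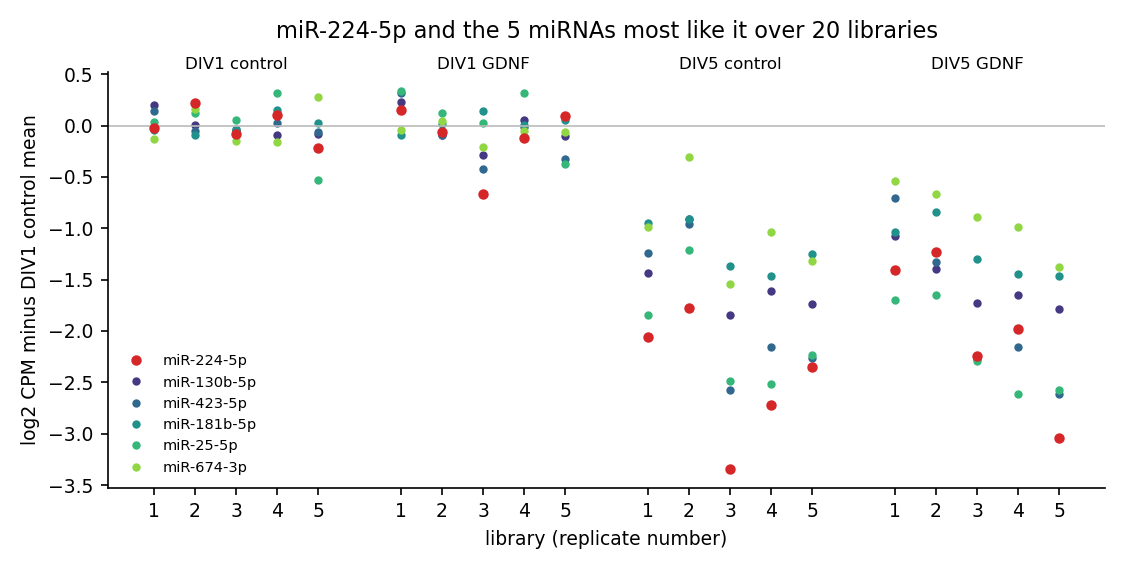
Log2 CPM of miR-224-5p (red) and of the 5 miRNAs with the highest Pearson r to it, each minus its own mean in the DIV1 control libraries, for the 20 libraries by group and replicate number. At DIV5 all 6 lie below 0, and in both DIV5 groups miR-224-5p is higher in libraries 1 and 2 than in libraries 3 to 5.

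Once the 4 group means were taken out, the deviations of miR-224-5p ran most closely with those of miR-423-5p (r = 0.846). miR-423-5p was also lower at DIV5 (711.2 ± 353 CPM without GDNF, against 2314 ± 144 at DIV1). Next came miR-3475-3p (0.792), miR-342-5p (0.782), miR-3099-3p (0.778) and miR-674-3p (0.763). miR-3475-3p, miR-342-5p and miR-3099-3p were not called lower at DIV5 without GDNF (log2 -0.0078, -0.386 and 0.40, edgeR adjusted p = 0.980, 0.187 and 0.0606). With GDNF miR-342-5p was called lower (log2 -0.683, edgeR adjusted p = 0.027) and miR-3099-3p higher (log2 0.438, edgeR adjusted p = 0.045). Likeness between replicates and likeness between days thus picked out partly different miRNAs. For miR-452-5p the r of the deviations was 0.362.

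Counts over other lists put the location in context. On the X chromosome, 46 tested arms other than miR-224-5p had a median log2 value of 0.18 for DIV5 against DIV1 without GDNF (0.10 over all tested miRNAs), with 11 called higher (23.9%) and 11 lower (23.9%), against 31.4% and 29.3% of all tested miRNAs. The most abundant of them, miR-351-5p and miR-501-3p, had -0.20 and 0.48 (edgeR adjusted p = 0.519 and 0.267). In introns of Htr2c, another X-linked receptor gene, 5 of 10 arms were tested. All 5 were called higher at DIV5 without GDNF (median 2.69), the other way from miR-224-5p. Of these, miR-1264-3p and miR-764-3p had only 0.445 and 0.685 CPM in DIV1 control and 6.07 and 5.12 CPM in DIV5 control. They passed the filter through the DIV5 libraries where they were high, so the count of 5 is a description and no support. miR-1298-5p rose from 89.4 ± 17.5 to 227.0 ± 76.1 CPM and miR-448-3p from 29.8 ± 7.30 to 164.1 ± 58.1 CPM without GDNF (log2 1.34 and 2.45). No arm of either list was called for GDNF at DIV1 or DIV5 by edgeR, against 0.0% and 0.185% of all tested miRNAs.

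Markers of cell types that a midbrain culture can hold were summed in each library, as values beside the fall of miR-224-5p. Over all 542 tested miRNAs, 31.4% were called higher and 29.3% lower for DIV5 against DIV1 without GDNF. The shares given for each list below stand beside these, and several are near them. Of the neuron markers, 13 of 16 arms were tested, with 8 called higher (61.5%) and 4 lower (30.8%) at DIV5 without GDNF (median log2 0.94). The arm miR-138-5p had 0 reads in all 20 libraries, although miR-138-1-3p and miR-138-2-3p were tested, so its 0 need not mean absence. The list summed to 7505 to 11400 CPM in DIV1 control and 19680 to 27460 CPM in DIV5 control libraries. Its most abundant arms, miR-128-3p and miR-124-3p, were both called higher at DIV5 (log2 1.61 and 1.36). Of the progenitor and proliferation markers, 13 of 16 were tested, with 0 called higher (0.0%) and 11 lower (84.6%), at a median log2 of -1.05. They summed to 93240 to 137500 and 22220 to 33830 CPM, with miR-92b-3p and miR-92a-3p both called lower (log2 -1.64 and -2.74). The progenitor sum was lower in every DIV5 control library than in any DIV1 control library.

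Of the mesenchymal, neural crest and vascular markers, 9 of 13 were tested, with 2 called higher (22.2%) and 4 lower (44.4%). The median log2 value was -1.33, and miR-126a-5p had 0 reads. The list summed to 4145 to 6680 CPM in DIV1 control and 2180 to 3454 CPM in DIV5 control libraries. In that list miR-143-3p was called lower (log2 -2.10) and miR-140-3p higher (log2 0.45). Of the glial markers, 6 of 9 were tested, with 2 called higher (33.3%) and 3 lower (50.0%), at a median log2 of -0.54. The arms miR-146a-3p and miR-219a-5p had 0 reads. As miR-219a-1-3p and miR-219a-2-3p were tested, the 0 of miR-219a-5p need not mean absence. The list summed to 3502 to 4183 and 2969 to 3497 CPM, with miR-21a-5p at -0.18 (edgeR adjusted p = 0.104) and miR-219a-2-3p called lower (log2 -1.02).

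Of the erythroid markers, 3 of 6 were tested, with 1 called higher (33.3%) and 2 lower (66.7%). The median log2 value was -2.10, and miR-486b-3p had 0 reads. The list summed to 2203 to 2998 CPM in DIV1 control and 3295 to 5339 CPM in DIV5 control libraries. There miR-486a-5p, counted with miR-486b-5p, was called higher (log2 0.80) and miR-451a, the most specific of the red cell markers, lower (log2 -2.10). The epithelial markers were rare, with 2 of 14 tested and both called lower (100%). The median log2 value was -0.93, and miR-200b-5p and miR-200c-5p had 0 reads. The list summed to 60.0 to 92.9 and 51.2 to 59.4 CPM, most of it miR-203-3p (log2 -0.39), and miR-203-5p had -1.48. The summed progenitor, mesenchymal, glial and epithelial markers were lower in every DIV5 control library than in any DIV1 control library. For the glial and epithelial lists the margin was narrow (3497 against 3502 CPM and 59.4 against 60.0 CPM). With GDNF, 25.1% of the 542 tested miRNAs were called higher and 27.3% lower at DIV5. The shares higher and lower were then 46.2% and 23.1% (neuron), 0.0% and 100% (progenitor), and 11.1% and 44.4% (mesenchymal). They were 16.7% and 33.3% (glial), 33.3% and 66.7% (erythroid), and 0.0% and 50.0% (epithelial). The part of these lists in the fall of miR-224-5p was not tested. With GDNF the mesenchymal sums of the days overlapped (4232 to 5628 CPM at DIV1 and 1780 to 4838 CPM at DIV5). Those of the progenitor, glial and epithelial lists did not. No arm of any marker list was called for GDNF at either day by edgeR. Over all 542 tested miRNAs it called 0.0% at DIV1 and 0.185% at DIV5.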

How the data were processed

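The deposited files, 1 for each library, hold unnormalized counts of reads for 1886 mature miRNA rows, followed by 5 tally lines. The submitters' processing notes name cutadapt 1.8.1, STAR 2.4.1d, HTSeq and build mm10; the miRNA annotation is not given in the sources used here. Tally lines were left out of library sizes (their share is in the report). Counts were analysed with edgeR 4.0.16 in R 4.3.3: filterByExpr kept 542 of 1581 miRNAs with a read, at least 99.9% of each library's counts, libraries were scaled with TMM factors, and 1 quasi-likelihood fit (glmQLFit, robust) held all 20 libraries with 1 coefficient per group. Calls are at a Benjamini-Hochberg adjusted p below 0.05 over the 542. The SE is the log2 value divided by the square root of F, without sign. The fit was checked on simulated data, for GDNF at DIV5 only. The simulated counts held no day effect and no split among the DIV5 libraries, so the check does not cover these. Log2 CPM used a pseudocount of 0.5. Libraries with the same replicate number deviated together at DIV5 (r 0.208 to 0.514 in 5 of 5 pairs) and not in every pair at DIV1 (0.00624 to 0.474). The paired test of the ratio was therefore run at DIV5 only. Yet only 2 of the 5 DIV5 pairs had their highest r with their own number, against 3 of 5 at DIV1, so the pairing is uncertain at both days. The replicate block and the counts of like-numbered libraries were used at both days. Alternatives were DESeq2 1.42.0, limma 3.58.1 voom, other scalings and filters, a replicate block, fewer groups and libraries left out. The paired test of the ratio and the fit of miR-452-5p were added after seeing the data. Named miRNAs are the 4 arms, the 5 most like miR-224-5p by each of 2 measures, any that share a seed with an arm, and the 2 most abundant arms of each list. The members and lists were chosen with earlier results of these data known. Positions are from GENCODE M21 and sequences from RefSeq GRCm38.p6.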

Additional observations from a re-analysis of the deposited data

How the results depend on the processing

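The GDNF values of miR-224-5p kept their sign and were not called in any alternative: 21 at DIV1 (log2 -0.22 to -0.011), 21 at DIV5 (0.36 to 0.77, adjusted p 0.165 to 0.999) and 30 for the difference of the effects (0.50 to 0.93, adjusted p 0.414 to 0.997). With the replicate block the 3 values were -0.14, 0.49 and 0.63, and no call changed. The day values of miR-224-5p moved by more than 1 SD of the libraries only with DIV5 libraries 1 and 2 alone (-1.92 without and -1.22 with GDNF), and lay between -2.86 and -1.92 and between -2.27 and -1.22 over 21 alternatives each. Leaving out 1 library gave -2.63 to -2.28 and -1.99 to -1.58. The ratio of the 5p arms at DIV1 had a difference between -0.029 and 0.48 with 1 library left out, the first without DIV1 control library 3 (exact p = 0.905), and at DIV5 between 0.23 and 0.95 (exact p 0.0476 to 0.651). With the replicate block, a paired test added after seeing the data, the DIV5 ratio difference of 0.57 had an exact p of 0.375. The number of miRNAs called for GDNF at DIV5 was 1 in the main fit and was unstable. With 1 library left out it lay between 0 and 43 and differed from 1 in 8 of 10 cases. It was 26 in DESeq2 and 3 with the replicate block. For the difference of the effects it was 0 or 1. With Spearman in place of Pearson, 4 of the 5 miRNAs most like miR-224-5p were the same, and 3 of 5 for the deviations. Depth limits miR-452-5p, with 1 to 12 reads a library, and both 3p arms. None of 24 lowest or highest library values of miR-224-5p, miR-452-5p and their ratio stood apart from its group by a Dixon gap test (critical value 0.71). That test looks at 1 extreme value, so it cannot flag 2 libraries that deviate together, as DIV5 libraries 1 and 2 did for miR-224-5p.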
